A study of Mus musculus with 24 samples.

Results

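Cyclosporin A (CsA) was added to Type D small cell lung cancer lines at the time p53 was switched back on, and 3 libraries with both treatments (Restored + CsA) were compared with 3 libraries of the same lines without the drug (Restored). These 6 libraries, of 24 in the series, were chosen by their labels: Type D lines 4711-1, 4711-18 and 4716-11, each giving 1 library per treatment, with RNA taken after 72 h. Each line was grown from a single tumor of a mouse in which adenoviral Cre had deleted Rb1 and Rbl2, and all libraries, controls included, lack those genes and carry a Trp53 allele that is silenced by a gene trap until a tamoxifen-activated Flp recombinase removes it. Restored cells received 4-hydroxytamoxifen and Control cells its vehicle. The remaining groups used here are Type D Control and Control + CsA, and the same 4 treatments of the Type V lines 4711-11, 4716-10 and 4716-14. Type D lines die after p53 returns, while Type V lines stay viable.

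CsA is an immunosuppressant that binds cyclophilins, a family of prolyl isomerases. Bound to cyclophilin A it inhibits the phosphatase calcineurin, which keeps NFAT transcription factors out of the nucleus, and in mitochondria it delays opening of the permeability transition pore, a route to necrotic death. The hypoxia response works through HIF transcription factors. Their alpha subunits are hydroxylated by oxygen-dependent enzymes of the Egln family and destroyed, and when hydroxylation fails they bind short DNA elements near genes for glycolysis, mitochondrial remodelling and angiogenesis. Egln genes are themselves HIF targets.

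Values are TPM, a per-length transcript abundance that sums to the same total in each library, and sequencing depth is unknown. Between 11960 and 12405 genes reached 1 TPM in the 6 libraries. Trp53 lay at 181 to 213 TPM in Restored and 206 to 233 TPM in Restored + CsA, against 10.7 to 13.9 TPM in Type D Control, so these libraries matched their labels for restoration. Trp53 does not check the CsA label. Neuroendocrine markers that define most small cell lung cancer were largely absent: Chga, which encodes chromogranin A, was listed at 0 in all 6 libraries, and 17 of 26 such markers reached 1 TPM in none. Of 18 leukocyte, 10 endothelial and 12 fibroblast markers, 11, 8 and 9 reached 1 TPM in none, among them Ptprc, Pecam1 and Col1a2. Other members reached it in all 6 libraries: 3 neuroendocrine (Ncam1, Foxa2 and Tubb3), 2 leukocyte (Cd14 and Cd68), 1 endothelial (Flt1) and 1 fibroblast (Vim). In Restored, Vim lay at 2365 to 4491 TPM, Cd14 at 105 to 107 TPM and Foxa2 at 72.9 to 111 TPM. In bulk RNA, fewer cells in a given state cannot be told apart from less RNA per cell.

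With CsA, 49 genes fell and 9 rose at an adjusted p under 0.05 (limma over every gene tested, with the line as a block, Benjamini-Hochberg adjustment). This is 0.347 percent and 0.0638 percent of the 14104 genes tested. By the stricter call, which also asks for a change of at least 1 log2, 18 genes fell (0.128 percent) and 0 rose (0 percent), although 838 genes stood higher and 933 lower at an unadjusted p under 0.05. Every one of the 58 moved the same way in all 3 lines, as did 18.6 percent (lower) and 20 percent (higher) of all genes tested. The test itself favours genes whose lines agree, so this agreement is no separate support for the 58. The log2 differences, Restored + CsA minus Restored on log2(TPM + 1), ran from -2.45 to -0.31 for the 49 and from 0.31 to 0.95 for the 9, and the median over all genes was 0.004. The calls lean on the block and on the libraries that share its error estimate. Without the block 2 genes fell and 0 rose, with the 12 Type D libraries alone 4 and 0, and with the 6 compared libraries alone 0 and 0. Leaving out line 4711-1, 4711-18 or 4716-11 gave 4, 78 or 11 genes lower and 1, 31 or 1 higher. Of the 58 genes, 3 (Bnip3, Lilr4b and Lilrb4a) passed whichever line was left out, 2 (Ankrd37 and Ak4) passed in 2 of these 3 fits, 30 in 1 and 23 in none. Lilrb4a, and 1700016G22Rik among the 18 called, entered the test only through the Restored libraries. Their entry favoured a fall, and the fits with a line left out kept the same filter.

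**Figure D1:**
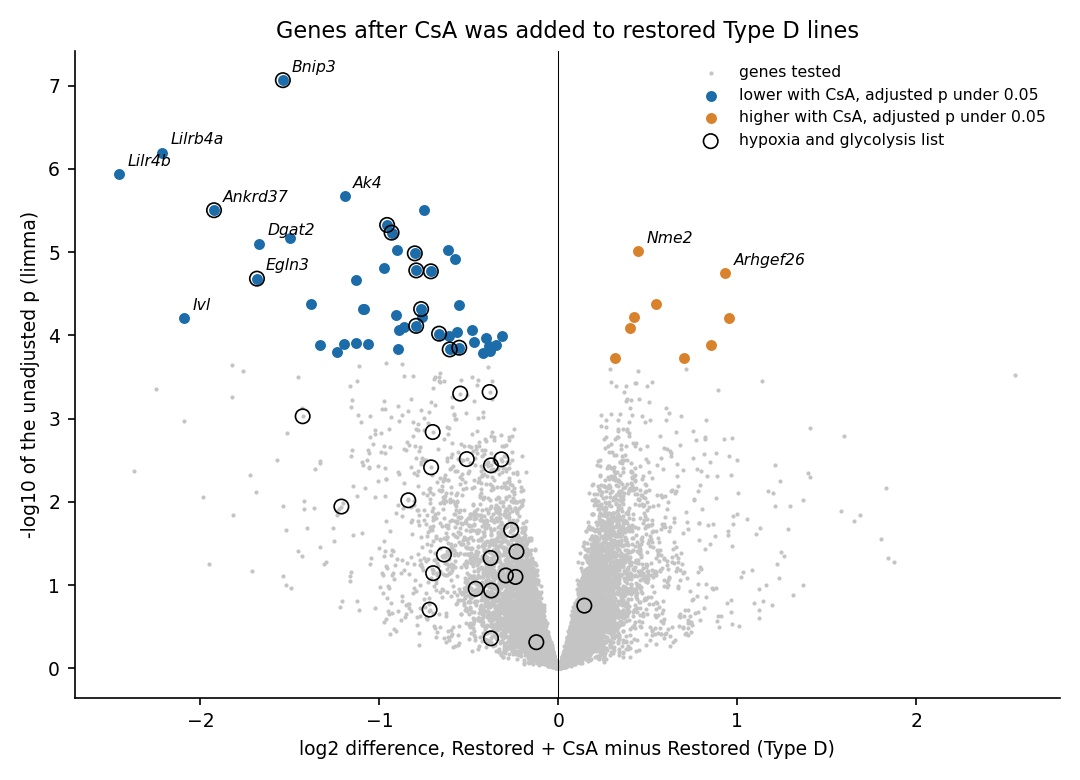
Each point is a gene, placed by its log2 difference (Restored + CsA minus Restored, Type D, horizontal axis) and by the -log10 of its unadjusted limma p (vertical axis). The 49 genes lower with CsA (blue) reach -2.45 and the 9 higher ones (orange) stay under 1, and the circled members of the hypoxia and glycolysis list lie left of 0 for 35 of 36 genes.

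Hypoxia-responsive and glycolytic genes made up 13 of the 49 that fell. Their list was written with earlier results of these data known, so its share of falls is no independent test. Of 36 tested genes on a list of 38, 13 fell (36.1 percent, against 0.347 percent of all genes) and 0 rose. That count was 1 without line 4711-1, 12 without 4711-18 and 2 without 4716-11, 2 with the Type D libraries alone, and 0 without the block or with the 6 libraries alone. A total of 35 of the 36 differences were below 0 (48.4 percent of all genes), and their median was -0.65 log2 against 0.004 for all genes. The median over the list was -0.60 in line 4711-1, -0.37 in line 4711-18 and -0.84 in line 4716-11. For 31 of the 36 the value was lower in every line, and for 8 the 3 CsA libraries all lay below the 3 Restored libraries, which holds for 3.59 percent of all genes tested.

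Bnip3, a mitochondrial outer membrane protein that recruits the autophagy machinery to mitochondria, had the smallest p in the comparison. It stood at 85.8, 123 and 524 TPM in the Restored libraries of lines 4711-1, 4711-18 and 4716-11, and at 25.6, 50.7 and 166 TPM once CsA was added. The lines differ so much in level that the groups overlap, yet each line dropped, and the log2 difference was -1.54 ± 0.16 (SE, adjusted p 0.00121). Bnip3 passed the test with any single line left out, with differences of -1.68 to -1.46.

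Ankrd37, a small ankyrin repeat protein induced in low oxygen, went from 33.5, 26.2 and 52.8 TPM to 6.59, 7.61 and 13.2 TPM in the same order of lines. Egln3, the hydroxylase isoform most strongly induced by HIF, went from 51.4, 54.4 and 88.7 TPM to 10.7, 19.3 and 32 TPM. For both genes all CsA libraries lay below all Restored libraries, and the differences were -1.92 ± 0.27 (adjusted p 0.00735) and -1.68 ± 0.28 (0.0146). Ankrd37 did not pass without line 4711-1 (adjusted p 0.132), and Egln3 did not pass with any line left out (0.478, 0.0506 and 0.125 without 4711-1, 4711-18 and 4716-11). Egln1, the main oxygen sensor of most cells, fell by less, from 132, 87.6 and 306 TPM to 74.7, 65.5 and 135 TPM (-0.80 ± 0.13, adjusted p 0.0104).

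**Figure D2:**
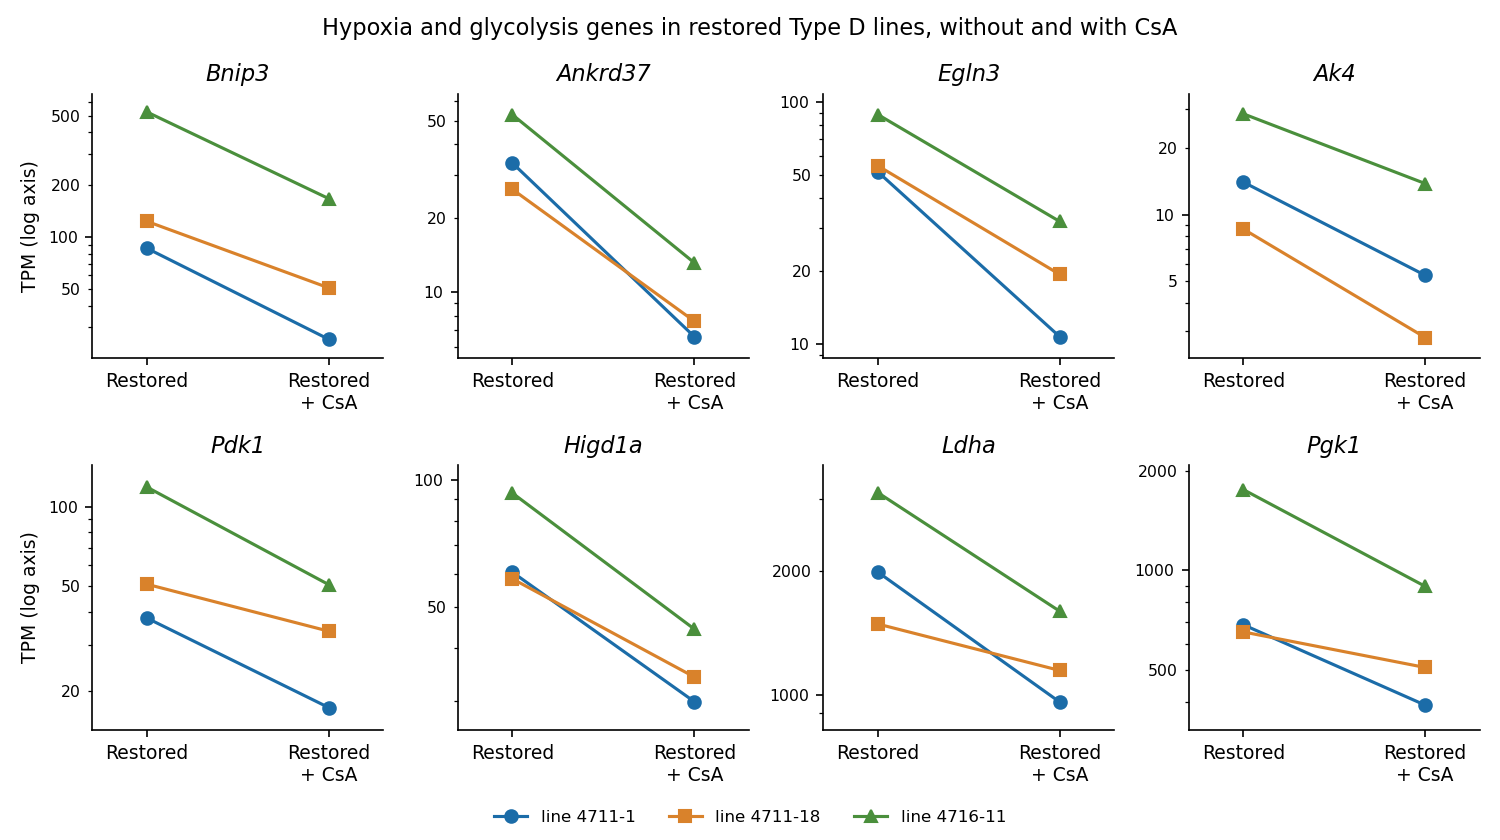
TPM on a log axis in Restored and Restored + CsA libraries for 8 genes, with each line joined by its own color and symbol. Every segment slopes down, from the steep drop of Ankrd37 to the shallower ones of Ldha and Pgk1 in line 4711-18.

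Bnip3, Ankrd37 and Egln3 are the members of the list that were called, and the 250 bases before the transcription start of each, from RefSeq on build GRCm38.p6, are shown so that the hypoxia response element core can be seen in place. The strand is that of the gene, 5′ to 3′, and capitals mark ACGTG or GCGTG read on either strand.
Bnip3, chr7:138909507-138909756, minus strand: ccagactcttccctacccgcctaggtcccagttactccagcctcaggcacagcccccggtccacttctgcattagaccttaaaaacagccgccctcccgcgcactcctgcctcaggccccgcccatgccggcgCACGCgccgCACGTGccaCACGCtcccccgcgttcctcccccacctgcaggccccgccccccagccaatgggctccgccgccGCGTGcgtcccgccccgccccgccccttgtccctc
Ankrd37, chr8:45999851-46000100, minus strand: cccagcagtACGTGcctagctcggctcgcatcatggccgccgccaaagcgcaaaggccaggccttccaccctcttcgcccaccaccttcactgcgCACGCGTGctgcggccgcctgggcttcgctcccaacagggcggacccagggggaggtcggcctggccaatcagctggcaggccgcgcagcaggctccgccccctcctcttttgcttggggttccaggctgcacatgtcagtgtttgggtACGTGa
Egln3, chr12:54203875-54204124, minus strand: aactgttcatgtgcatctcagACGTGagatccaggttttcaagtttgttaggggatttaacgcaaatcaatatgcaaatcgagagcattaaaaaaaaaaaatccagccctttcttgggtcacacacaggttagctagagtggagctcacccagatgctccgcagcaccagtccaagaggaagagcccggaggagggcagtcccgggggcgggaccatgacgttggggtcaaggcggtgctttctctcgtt
The Bnip3 stretch holds 5 matches, the Ankrd37 stretch 4 and the Egln3 stretch 1. At Bnip3 a pair of them are the strands of a CACGTG palindrome 108 to 103 bases before the start, a sequence that other factors (E-box proteins) also bind. GENCODE release M21 places an exon of the gene itself over 13 bases of the Bnip3 stretch and 17 of the Ankrd37 stretch. The Ankrd37 stretch lies wholly within the span annotated for Ankrd37, which begins further upstream, and within Lrp2bp on the other strand. The motif is common: 54.3 percent of the 13749 promoters of tested genes hold it, against 76 percent of the 50 promoters of list members, of which a gene can have several. Counted by gene, 60.1 percent of tested genes, 90.9 percent of list members (30 of 33) and 92.3 percent of those that fell (12 of 13) have it in at least 1 promoter. The share was 64.3 percent (18 of 28) for genes that fell outside the list and 75 percent (6 of 8) for genes that rose. A match is a run of letters and does not show binding.

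Glycolytic enzymes made up much of the rest. Ldha, which turns pyruvate into lactate, stood at 1987, 1486 and 3102 TPM in Restored and at 959, 1145 and 1596 TPM with CsA (-0.79 ± 0.15, adjusted p 0.0326). Pgk1, an ATP-yielding enzyme of lower glycolysis, went from 684, 651 and 1756 TPM to 391, 508 and 895 TPM (-0.71 ± 0.12, 0.0133). The groups overlap for both because line 4716-11 was high throughout. The phosphofructokinase subunit Pfkl (-0.79), the phosphoglycerate mutase Pgam1 (-0.67) and the triose isomerase Tpi1 (-0.61) also fell. Aldoa (-0.55, adjusted p 0.0711), Eno1 (-0.38, 0.0688), Gapdh (-0.51, 0.147) and Pkm (-0.38, 0.154) were lower in all 3 lines without passing, and Pfkm, the muscle-type subunit, was the exception at 0.15. Genes such as Gapdh, Ldha and Pgk1 have many near-identical pseudogenes, so their values depend on how reads were assigned.

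Genes that steer pyruvate and mitochondria were also among the 13. Pdk1, the kinase that shuts the pyruvate dehydrogenase complex, went from 37.9, 50.9 and 119 TPM to 17.4, 33.8 and 50.7 TPM (-0.96 ± 0.14, adjusted p 0.00948). Higd1a, a hypoxia-induced protein of the inner mitochondrial membrane, went from 60.4, 58.3 and 93 TPM to 29.9, 34.2 and 44.4 TPM, with no overlap between the groups (-0.93 ± 0.14, 0.0103). The histone demethylase Kdm3a (-0.77) and the collagen prolyl hydroxylase subunit P4ha1 (-0.55) fell as well. The lactate exporter Slc16a3 (-1.43, adjusted p 0.0942), the lipid droplet protein Hilpda (-1.21, 0.227), the glucose transporter Slc2a1 (-0.84, 0.212) and the hexokinase Hk2 (-0.64, 0.376) did not pass. Vegfa, the angiogenic growth factor, differed by -0.38 ± 0.47.

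Outside the list, 4 more of the 49 are known to answer low oxygen or to feed glycolysis, and they were picked after their values were seen. Ak4, a mitochondrial adenylate kinase, went from 14, 8.61 and 28.5 TPM to 5.33, 2.8 and 13.8 TPM (-1.19 ± 0.16, adjusted p 0.00735). Fam162a, a mitochondrial protein induced through HIF, fell from a mean of 772 to 390 TPM (-0.97 ± 0.16), and the Jumonji-domain hydroxylase Jmjd6 fell from between 105 and 135 TPM to between 59.4 and 80.2 TPM (-0.75 ± 0.11). Pgm1, which passes glucose units from glycogen into glycolysis, fell by 0.57 on the log2 scale.

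Where CsA was given without restoration, or to restored Type V lines, the list lay closer to all genes. In Type D Control + CsA against Control the median over the 36 genes was -0.10 log2, with 26 below 0 (all genes: -0.03, 57.9 percent below 0). In restored Type V lines it was 0.01, with 17 below 0 (all genes: -0.02, 57.3 percent). Some list members were near 0 there, where a fall can hardly show, such as Egln3 at 0.26, 16.8 and 0.43 TPM without CsA. The summed level of the list was 5688 to 9217 TPM in Type V Restored against 12784 to 20240 TPM in Type D Restored. The change by restoration (the CsA difference in restored minus that in unrestored Type D) had a median of -0.56 over the list, and the change in Type D minus Type V had a median of -0.65, with 34 of 36 below 0 in each. Over all genes these medians were both 0.03. Gene by gene, the difference by restoration passed for 0 genes in either direction (0 percent, smallest adjusted p 0.266, 571 genes at an unadjusted p under 0.05), so a different size of effect for a single gene was not shown there. Between types it passed for 1 gene, Bnip3 (0.00709 percent of genes tested). Bnip3 stood at 49.4, 110 and 38.1 TPM in restored Type V libraries and at 59.3, 130 and 40.4 TPM with CsA, slightly higher in each line, and the difference between the types was -1.73 ± 0.23 log2 (adjusted p 0.0226). That adjusted p was above 0.05 without Type D line 4711-1 or 4716-11 (0.232 and 0.185), without Type V line 4711-11 or 4716-10 (0.494 and 0.0941), with median-ratio scaling (0.0875) or quantiles matched (0.0644), and without the block (1). CsA changed 0 genes in restored Type V lines, with 633 at an unadjusted p under 0.05.

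**Figure D3:**
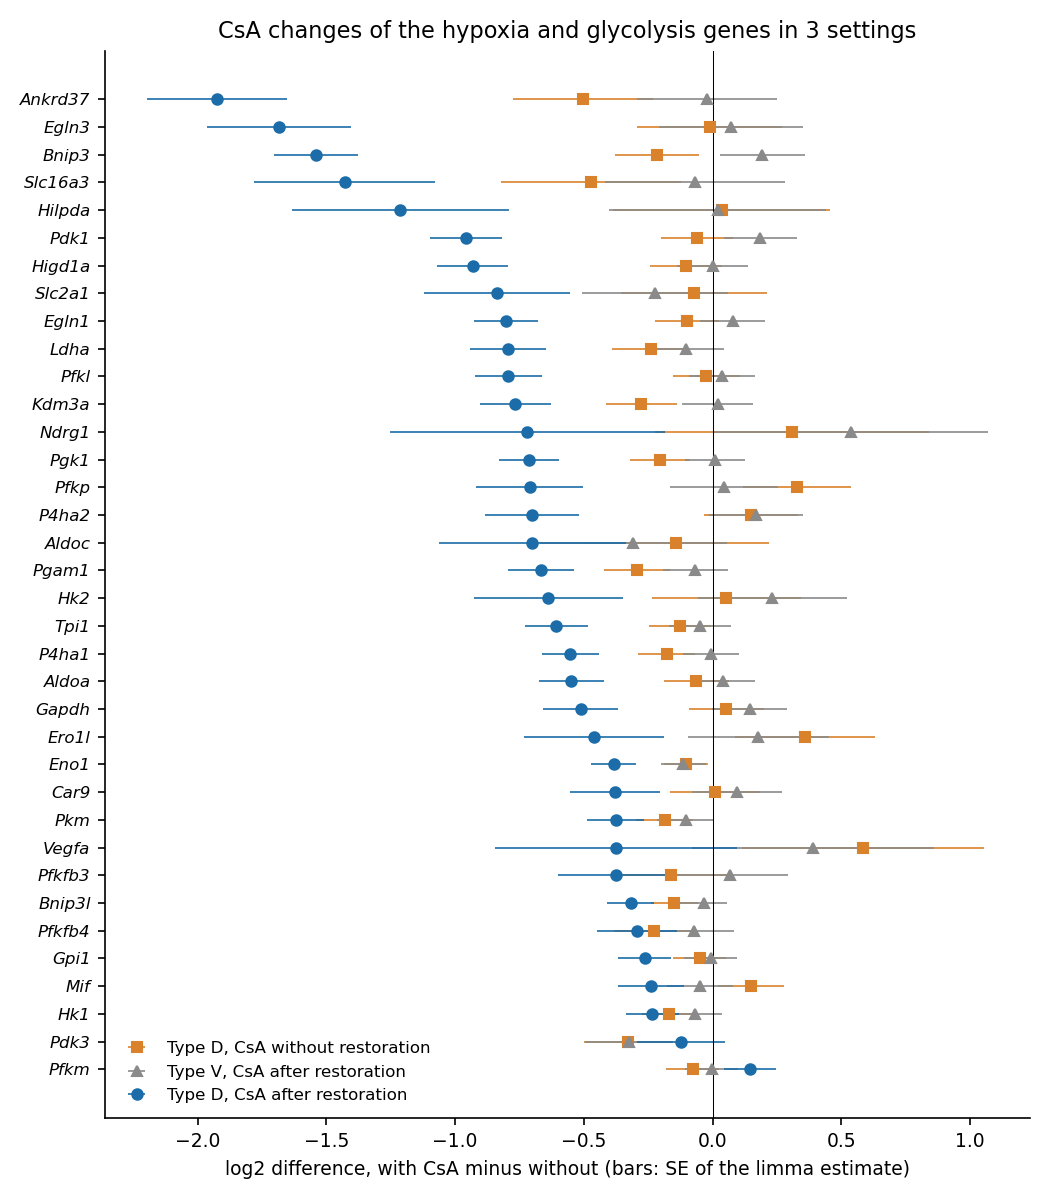
Log2 difference made by CsA (horizontal axis, bars are the SE of the limma estimate) for the 36 tested hypoxia and glycolysis genes, ordered by their value in restored Type D lines (blue circles). The blue points run from -1.92 to 0.15, while those for Type D without restoration (orange squares, median -0.10) and restored Type V (grey triangles, median 0.01) gather around 0.

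Of the genes that fell, the 3 with the largest differences had risen with p53 restoration (log2 4.40 for Lilr4b, 3.25 for Lilrb4a and 3.25 for Ivl, in a comparison that shares the Restored libraries). Lilr4b and Lilrb4a encode leukocyte immunoglobulin-like receptors best known from myeloid and mast cells. In Type D Control they were at or near 0, at means of 0.343 and 0 TPM. In Restored Lilr4b stood at 70.6, 20.9 and 13.4 TPM and Lilrb4a at 17.1, 7.27 and 4.74 TPM. With CsA they stood at 4.41, 6 and 2.62 TPM and at 0.655, 1.88 and 0.815 TPM. The groups do not overlap for either gene, and line 4711-1 had both the highest Restored values and the largest drops. The differences were -2.45 ± 0.32 (adjusted p 0.00539) and -2.21 ± 0.27 (0.00449). Lilrb4a entered the test only through the Restored libraries, where it is high: it was listed at 0 in all Type D libraries without restoration, reached at most 0.2 TPM in Type V, and passed 1 TPM in 1 of the 3 Restored + CsA libraries. The entry of Lilrb4a therefore favoured a fall from Restored. Because these paralogs are nearly identical, reads may be split wrongly between them. Of 9 family members matched in the table the other 7 reached 1 TPM in none of the 6 libraries. Beside these values, Ptprc peaked at 0.0791 TPM, Tyrobp and Itgax were listed at 0 throughout, and the summed level of 18 markers, carried by Cd14 and Cd68, was 141 to 169 TPM in Restored and 111 to 152 TPM with CsA. Their part in the result was not tested.

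Ivl, the cornified envelope protein involucrin, went from 20.7, 17.3 and 27.2 TPM to 1.96, 4.25 and 8.37 TPM (-2.09 ± 0.38, adjusted p 0.0273). Its call was lost whichever line was left out (0.532, 0.0611 and 0.133 without 4711-1, 4711-18 and 4716-11). Csf2, which encodes the cytokine GM-CSF, went from 398, 439 and 229 TPM to 48.1, 201 and 112 TPM. Its groups do not overlap, but the drop in line 4711-1 was much deeper than in the others and the difference of -1.72 ± 0.52 did not pass (adjusted p 0.166). Ptgs2, the inducible cyclooxygenase, went from 1176, 746 and 500 TPM to 473, 345 and 299 TPM (-1.05, 0.41), and Hmox1, heme oxygenase 1, from 2793, 2408 and 1039 TPM to 1261, 857 and 733 TPM (-1.05, 0.39). Module 5, a set that the study drew from the Control and Restored libraries and that is therefore no independent measure of restoration, had 0 of 101 genes changed, a median of -0.24 and 50 genes lower in all 3 lines. Of the 101 genes 84 were below 0, and the line medians were -0.36, -0.22 and -0.13. Over all genes tested the median was 0.004, with 48.4 percent below 0 and 18.6 percent lower in all 3 lines.

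**Figure D4:**
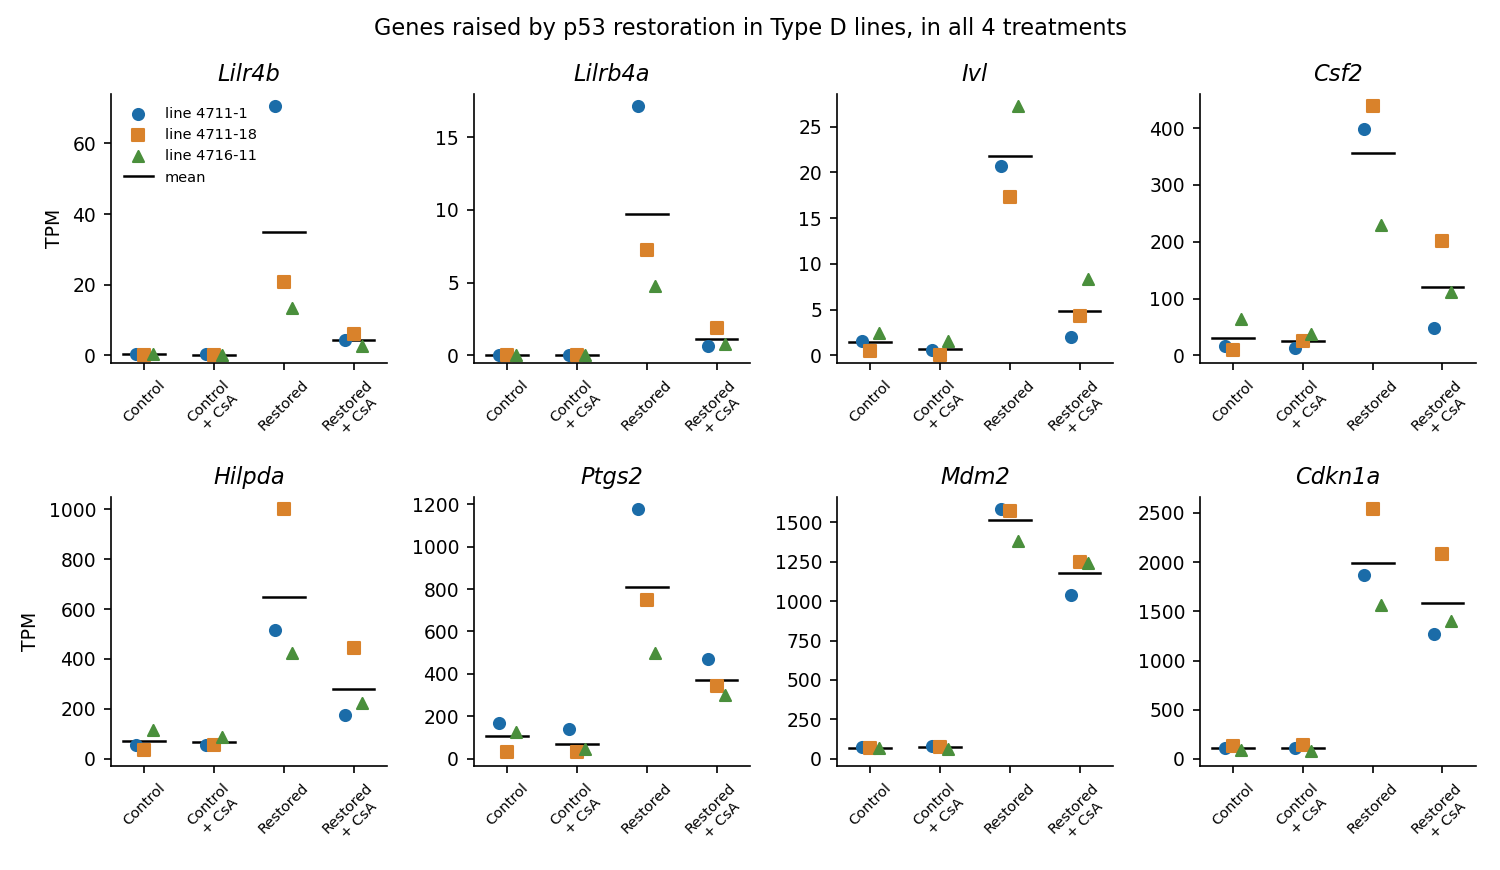
TPM of 8 genes in the 4 treatments of the Type D lines, with a point for each line and a bar at the mean. Lilr4b, Lilrb4a and Ivl are high in Restored and low in Restored + CsA, whereas Mdm2 and Cdkn1a stay far above Control in every Restored + CsA library.

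None of the p53 targets passed the test. Of 67 p53 targets 0 changed with CsA, their median was -0.08, and 41 were below 0 (all genes: 0.004 and 48.4 percent). In all 3 lines 25 were lower and 11 higher (all genes: 18.6 and 20 percent). At an unadjusted limma p under 0.05, 12 were lower and 1 higher (all genes: 933 and 838). Restoration, whose comparison shares the Restored libraries, had moved the same 67 genes by a median of 1.70 log2. Mdm2, the ubiquitin ligase that limits p53, stood at 1584, 1570 and 1384 TPM in Restored and 1041, 1251 and 1244 TPM with CsA, the latter all below the former (-0.36 ± 0.13, adjusted p 0.246). Cdkn1a, the cell cycle inhibitor p21, stood at 1871, 2540 and 1563 TPM and at 1271, 2082 and 1405 TPM, with overlap (-0.33 ± 0.13, 0.298). Btg2, an antiproliferative p53 target, was lower in all 3 lines, with no overlap (-0.97, adjusted p 0.363). Trp53 itself differed by 0.13 ± 0.12. With CsA in restored Type V lines 45 of the 67 targets were below 0 (median -0.04, all genes: 57.3 percent below 0). In Type D without restoration 32 were (median 0.01, all genes: 57.9 percent).

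The same held for death genes downstream of p53. Of 23 effectors 0 changed, with a median of -0.11 and 17 below 0 (all genes: 0.004 and 48.4 percent). Pmaip1, which encodes the BH3-only protein Noxa, went from 92, 186 and 137 TPM to 54, 109 and 115 TPM (-0.59 ± 0.24, adjusted p 0.3). The BH3-only gene Bcl2l11 differed by -0.45 ± 0.11 (0.0961) and the apoptosome scaffold Apaf1 by -0.32 ± 0.12 (0.283), each lower in all 3 lines. The pore former Bax (-0.05 ± 0.09), the BH3-only gene Bbc3 (-0.11 ± 0.20) and Perp (-0.12 ± 0.25) lay within about 1 SE of 0. With CsA in restored Type V lines 17 of the 23 effectors were also below 0 (median -0.07, all genes: 57.3 percent below 0). In Type D without restoration 15 were (median -0.03, all genes: 57.9 percent).

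Genes of the drug's own targets did not pass either. The 16 cyclophilins tested had a median of 0.06, with 0 changed. Ppia, cyclophilin A, stood at 624, 474 and 674 TPM in Restored and 667, 562 and 728 TPM with CsA (0.15 ± 0.09, adjusted p 0.548), Ppib differed by 0.16 ± 0.09, and Ppic by 0.38 ± 0.16 (0.329). Of 18 calcineurin and NFAT genes 0 changed, with a median of -0.03. The catalytic subunits Ppp3ca and Ppp3cb were higher in all 3 lines (0.25 ± 0.11 and 0.23 ± 0.11, adjusted p 0.36 and 0.394). Rcan1, a calcineurin inhibitor whose inducible transcript is a classical NFAT target, stood at 24.5, 41.7 and 25.4 TPM and at 23.9, 31.5 and 26.5 TPM (-0.12 ± 0.17). Among 40 genes tied to the mitochondrial permeability transition 0 changed (median 0.05), and Slc25a5, an adenine nucleotide translocase, was higher in every library with CsA, at 407 to 422 TPM against 333 to 340 TPM (0.30 ± 0.10, adjusted p 0.211).

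Stress-induced transcription factors and cytokines leaned downward without a change that passed. Of 38 immediate early genes 33 were below 0 with a median of -0.42, by line -0.76, -0.39 and -0.23, and 0 changed. Among all genes tested 48.4 percent were below 0. Egr2, a zinc finger factor that NFAT and growth signals induce, was at 4.77, 2.46 and 3.44 TPM in Restored and 0.623, 0.397 and 0.976 TPM with CsA (-1.43 ± 0.34, adjusted p 0.0879). Of 36 cytokines and chemokines 29 were below 0 (median -0.29), with Cxcl2, a chemokine for neutrophils, at -1.46 (adjusted p 0.0593) and Ccl20, an epithelial chemokine, at 0.80 (0.234). Of 39 NRF2 antioxidant targets 29 were below 0 (median -0.14), with a median of -0.44 in line 4711-18 against -0.03 and -0.06 in the others.

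**Figure D5:**
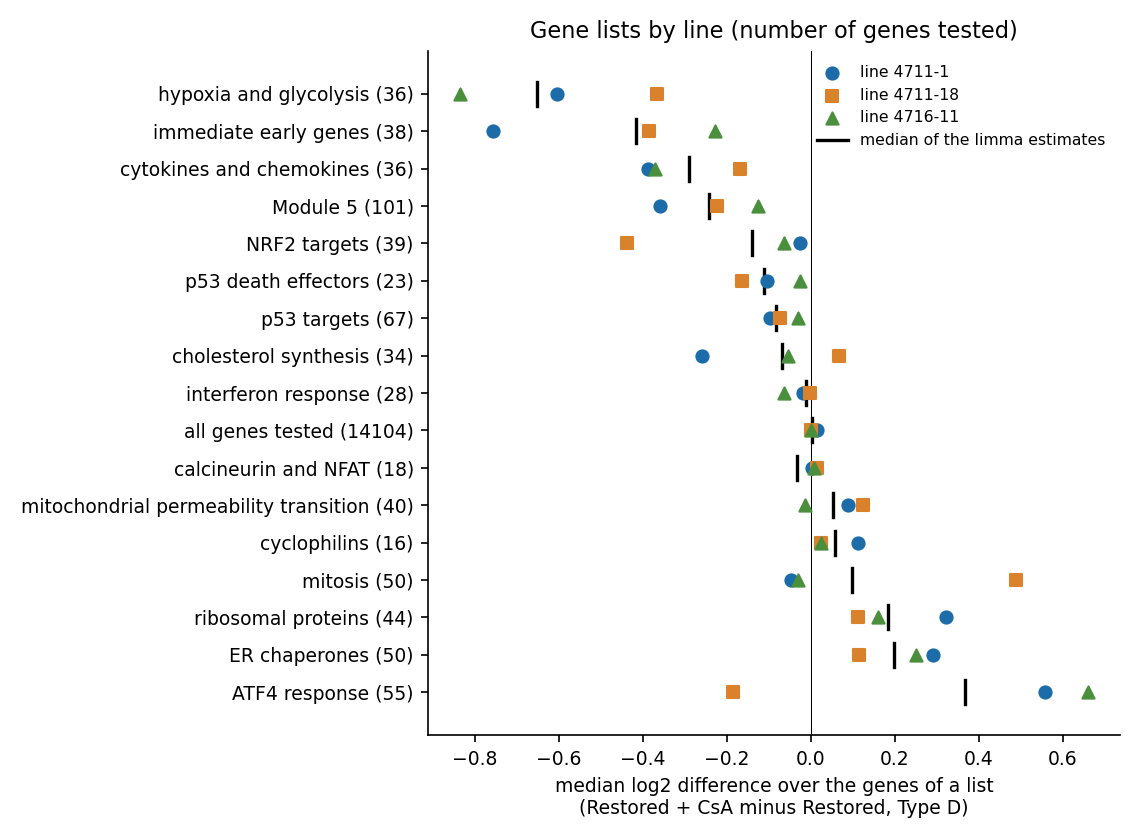
For each gene set and for all genes, the median log2 difference over the genes tested (Restored + CsA minus Restored) in each Type D line, with a vertical bar at the median of the limma estimates. The hypoxia and glycolysis points lie between -0.84 and -0.37, all genes lie at or near 0, and ER chaperones and ribosomal proteins lie right of 0 in every line.

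The 9 genes that rose did so by less than 1 log2. Nme2, a nucleoside diphosphate kinase, went from 498, 487 and 485 TPM to 721, 586 and 705 TPM without overlap (0.45 ± 0.07, adjusted p 0.0104), although it shares sequence with its neighbor Nme1. Uqcrq, a subunit of respiratory complex III, went from 166, 214 and 138 TPM to 264, 239 and 242 TPM (0.54 ± 0.10, 0.0252), and Coq2, an enzyme of ubiquinone synthesis, from 56.9, 84.1 and 75 TPM to 84.6, 107 and 92 TPM (0.40 ± 0.08, 0.0329). The exchange factor Arhgef26 (0.93), the meiotic recombination gene Mnd1 (0.85), the D-tyrosyl-tRNA deacylase Dtd1 (0.70), the lysosomal glucuronidase Gusb (0.42), the phosphoinositide kinase scaffold Vac14 (0.31) and 4931408D14Rik (0.95) completed the set. The mitochondrial ribosomal gene Mrpl30 (0.29, adjusted p 0.0548) and the exporter Abcc5 (0.71, 0.0548) came close.

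Protein-making genes leaned upward by small amounts in all 3 lines. Of 50 ER chaperone genes 44 were above 0 (median 0.20), including Txndc11 (0.63, adjusted p 0.143) and Herpud1 (0.59, 0.254), and of 44 ribosomal protein genes 43 were (median 0.18). None of either list changed, and of all 14104 genes tested 7274 were above 0. Both medians were alike where CsA was given without restoration (0.20 and 0.16) and in restored Type V lines (0.22 and 0.21). The ATF4 list, genes of the integrated stress response, had a median of 0.37 with 44 of 55 above 0, but the lines differed: 0.56 in 4711-1, 0.66 in 4716-11 and -0.18 in 4711-18. Its median was 0.64 where CsA was given to Type D without restoration and 0.33 in restored Type V lines, with 2 below 0 in each. The change by restoration had a median of -0.35 over this list. Atf5, a factor translated under that response, went from 172, 248 and 101 TPM to 379, 252 and 288 TPM (0.89 ± 0.27, adjusted p 0.167). Without restoration CsA changed only 2 genes in Type D, both higher (0.0142 percent of genes tested), and Atf5 was one of them (1.91, adjusted p 0.037). That count was 0 with a pseudocount of 0.1, with no filter, without the block, with the Type D libraries alone and with any Type D line left out.

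The remaining genes that fell were varied. Dgat2, which makes triglyceride, went from 42.6, 11.6 and 37.4 TPM to 7.14, 5.22 and 12 TPM (-1.67 ± 0.26, adjusted p 0.0104), and differed by -1.32 where CsA was given without restoration (0.119). Hgsnat, a lysosomal acetyltransferase of heparan sulfate breakdown, went from 121, 73.2 and 102 TPM to 37, 44.5 and 50.4 TPM without overlap (-1.13 ± 0.19, 0.0146). Where CsA was given without restoration, Hgsnat differed by -0.80 (limma adjusted p 0.265). Snai1, a repressor of epithelial genes (-1.09), the tight junction gene Cldn23 (-1.38), cardiac troponin T Tnnt2 (-1.09), the granzyme Gzmm (-1.20), Pbxip1 (-1.24), Lratd1 (-1.33), Tmem252 (-1.13), 1700016G22Rik (-1.50) and 4833419F23Rik (-1.06) were called too. Snai1, Cldn23, Gzmm and the Rik genes lay under 11 TPM in every one of the 6 libraries, where the pseudocount of 1 understates a change, and Tmem252 and Tnnt2 were under 4 TPM in line 4711-18. 1700016G22Rik entered the test only through the Restored libraries, where it is high (2.25, 4.59 and 3.4 TPM). Elsewhere it reached at most 1.28 TPM, and too few libraries reached 1 TPM to pass the filter. Its entry therefore favoured a fall from Restored. The ER-phagy receptor Retreg3 (-0.90), the m6A reader Ythdc1 (-0.61) and Ppp1r15b, the constitutive partner of eIF2alpha phosphatase (-0.58), were among the smaller falls, each without overlap between the groups.

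Mitotic genes, which restoration lowers, were one more place where the lines parted. Of 50 genes 38 were above 0 with CsA (7274 of 14104 among all genes), with a median of 0.10 and 0 changed. The line medians were 0.49 in 4711-18 and -0.05 and -0.03 in 4711-1 and 4716-11. All 50 were below 0 with CsA in Type D without restoration (median -0.31) and in restored Type V lines (median -0.70). Ccnb1, the mitotic cyclin B1, stood at 14.1, 5.52 and 19.3 TPM in Restored and 19.1, 11.3 and 20 TPM with CsA (0.46 ± 0.23, adjusted p 0.438), against a mean of 140 TPM in Type D Control.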

How the data were processed

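The TPM table deposited by the authors covers 25239 genes in 24 libraries and was taken unchanged. Sequencing depth cannot be read from it. Per the study, libraries were stranded, made from mRNA and read single-end. Its methods and labels name kallisto or HISAT2 and mm10 or GRCm39 without saying which lies behind the table. Values were analysed as log2(TPM + 1), which understates changes of low genes, for the 14104 genes with at least 1 TPM in at least 3 libraries. A linear model with moderated, trended variances (limma 3.58.1, R 4.3.3) was fitted to all 24 libraries with the 6 cell lines as blocks and 3 treatment terms in each type (12 residual degrees of freedom). Tests were two-sided, adjusted by Benjamini-Hochberg over the genes tested in each comparison. "Rose" and "fell" mean an adjusted p under 0.05, and "called" also a change of at least 1 log2.

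Lines pair the libraries by their labels: deviations from group means correlated at r of 0.599 to 0.882 within a Type D line and -0.67 to 0.0438 between lines. Deviations within a group sum to 0, so positive values within lines by themselves push those between lines below 0. Each line gave 1 library per treatment, and the error is pooled over both types and all treatments, so p-values measure the spread of treatment differences between the 6 lines and not within a line. No columns were identical.

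The comparison, the 26 lists of known genes and the named genes were chosen with earlier results of these data known. The 8 sets from the study (6 modules and 2 signatures) were chosen by it on these samples. Lists are described by counts and medians, with no test. Of the lists not described in the report, the median over tested genes was -0.07 for cholesterol synthesis, 0 for DNA replication, -0.01 for interferon response, -0.03 for necroptosis and pyroptosis, 0.03 for ferroptosis, -0.04 for ABC transporters, 0 for lysosome and autophagy and 0.07 for p53 regulators. It was 0.02 and 0.01 for the Type V Signature and the Type D signature, and -0.06, 0.01, 0.13, 0.10 and -0.08 for Modules 1, 2, 3, 4 and 6.

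Named genes are those called and moving the same way in all lines, then, up to 12 per direction, those with the smallest p among genes with a mean of at least 5 TPM, key p53, cyclophilin and calcineurin genes, up to 2 per direction from each other list, and those called between types. Other named genes were taken from the lists or the 58. Scripts were checked on simulated data. Figures used matplotlib 3.10.9. 1 marker gene is not reported here.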

Additional observations from a re-analysis of the deposited data

Results flagged for a closer look

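Bnip3 was set apart by a test of a difference between groups: the CsA difference in restored Type D lines minus that in restored Type V lines was -1.73 log2 (limma with the cell line block, adjusted p 0.0226). It was lower with CsA in 3 of 3 Type D lines and higher in 3 of 3 Type V lines, where the difference itself did not pass (0.19, adjusted p 1).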

How the results depend on the processing

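The 58 changes kept their direction under each alternative in which they were fitted (53 of them with a minimum of 5 TPM, 58 in the others), but how many passed depended on the fit. Without the replicate block 2 genes fell and 0 rose (2 called lower). With the Type D libraries alone and the block 4 fell and 0 rose (3 called), and with the 6 compared libraries alone 0 and 0 (0 called). Quantile normalization gave 14 genes higher and 1 called higher, and a pseudocount of 0.1 gave 5 higher, 11 called lower and 1 called higher. Leaving out each Type D line in turn gave 1 to 31 genes higher and 4 to 78 lower, with 0 to 12 called higher and 4 to 47 called lower. The fewest lower came without line 4711-1 and the most without 4711-18. The hypoxia and glycolysis list had 34 or 35 genes below 0 in every setting, with medians of -0.71 to -0.49 and 0 to 13 genes changed. For CsA without restoration 0 genes were changed or called with a pseudocount of 0.1, no filter on low values, no block, the Type D libraries alone or any Type D line left out. The difference by restoration gave 1 gene without the filter and 0 to 1 with a line left out. That between types gave 2 genes without the filter, 0 with quantile normalization, median-ratio scaling or no block, and 0 to 3 with a line left out. Over the lines left out Bbc3 ranged from -0.26 to 0.055 and Rcan1 from -0.21 to 0.013, changing sign without line 4711-18. Tff2 after restoration, not past the threshold, ranged from -0.0025 to 0.86, with the sign change without line 4711-1, and was -0.056 with the pseudocount of 0.1. The cause was not tested. Depth is unknown, so no counting error can be given for low values.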

Other observations

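Tff2, a secreted trefoil peptide of gut epithelium, was the other gene that rose with CsA in Type D lines without restoration, and it was picked after its values were seen. It stood at 88.5, 1.69 and 44.7 TPM in the Control libraries of lines 4711-1, 4711-18 and 4716-11 and at 414, 6.04 and 151 TPM in Control + CsA (1.78 ± 0.26, limma adjusted p 0.037). After restoration it stood at 24.5, 0.281 and 22 TPM without CsA and at 64.8, 0 and 28.4 TPM with it (0.45 ± 0.26, adjusted p 0.506). The change by restoration was -1.33 ± 0.37 (adjusted p 0.995).

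Leukocyte markers differed in both directions at low levels, and 0 of the 8 tested passed. S100a8, a granulocyte calcium-binding protein, stood at 4.26, 1.64 and 1.15 TPM in Restored and at 0.346, 1.14 and 0 TPM with CsA (-1.12 ± 0.37, adjusted p 0.203). Cd79a, a subunit of the B cell receptor, stood at 4.65, 0.959 and 2.24 TPM and at 0.675, 0.443 and 0.448 TPM (-1.12 ± 0.27, adjusted p 0.0942). It reached 1 TPM only in Restored libraries, of Type D (4.65 and 2.24 TPM) and Type V (1.67 TPM). Its entry into the test therefore favoured a lower value with CsA. Cd74, the invariant chain of antigen presentation, and Lyz2, a myeloid lysozyme, were higher in all 3 lines, by 0.34 (adjusted p 0.901) and 0.23 (0.713). Their part in the other results was not tested.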
